A study of Mus musculus with 5 samples.

Results

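The genes described here are the nuclear-encoded genes of the mitochondrial respiratory chain and ATP synthase in MEL cells, a mouse erythroleukemia line that resembles early red cell precursors. They were taken by symbol from the mRNA-seq list: names starting with Nduf, Uqcr, Atp5, Cox4, Cox5, Cox6, Cox7 or Cox8, and Sdha, Sdhb, Sdhc, Sdhd and Cyc1. Only genes typed as protein-coding in the mouse annotation GENCODE M21 were kept. This gave 90 of the 18349 genes listed, and 13407 of the listed genes were protein-coding. The rows Atp5l2 and Atp5l-ps1 also matched the names but are annotated as processed pseudogenes and were left out. By complex there were 45 genes of complex I, 4 of complex II, 9 of complex III, 15 of complex IV and 17 of complex V.

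The series holds 3 PABPC1 CLIP-seq samples and 2 mRNA-seq samples, all from MEL cells under standard culture. CLIP-seq uses ultraviolet light to link a protein to the RNA it touches, then precipitates the protein and sequences the RNA fragments that come with it. PABPC1 is the main cytoplasmic poly(A) binding protein, which coats mRNA tails. The CLIP-seq replicates were pooled by the authors into 1 list of peaks and 1 list of single bases at which tags carried deletions, and the mRNA-seq replicates were given as 1 RPKM value per gene (reads scaled by gene length and library size). No value below therefore has a replicate error, and no test between groups was possible. All values come from 1 established line in bulk, in which fewer cells of a type and less RNA per cell cannot be told apart. The growth protocol also mentions NIH-3T3 fibroblasts, for which no sample was used.

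The respiratory chain passes electrons from NADH through complex I, and from succinate through complex II, to ubiquinone, complex III, cytochrome c and complex IV, where oxygen is reduced. Complexes I, III and IV pump protons across the inner mitochondrial membrane, and complex V (ATP synthase) uses the returning protons to make ATP. A small number of subunits are encoded in mitochondrial DNA. The rest are translated in the cytoplasm from polyadenylated nuclear mRNAs, the class of RNA that PABPC1 binds, and are then imported. In red cell precursors mitochondria also carry out part of heme synthesis.

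Peaks numbered 90337 with a summed height of 3414820 tags, and deletion sites numbered 11907. The RPKM values correspond to 35251228 counted reads. The depth of the CLIP-seq libraries is unknown. All 10 erythroid markers, among them Gata1, Klf1 and Tfrc, were listed at 19.6 to 428 RPKM. Of 6 fibroblast, 3 lymphoid and 4 myeloid markers, 7 were listed and none reached 1 RPKM, the highest being Col1a1 at 0.873 RPKM.

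The sequences around the strongest deletion sites show where on these mRNAs the contacts were placed. A deletion arises when reverse transcriptase skips a base still carrying a piece of the linked protein, so it marks a contact more closely than a peak. Each window is given 5′ to 3′ on the transcript strand, from the GENCODE M21 transcripts on mm10 (GRCm38), and the capitals mark every base listed as a deletion site. The first set holds sites with many deletions that lay on or beside the poly(A) signal AATAAA, the element that directs cleavage and tailing of the mRNA.
Ndufa11: caaacccctgtgacAAataaacgctgtat
Ndufa10: tccaacttgaagaaATAaagccggctctg
Ndufa13: caacgcaCATAATAAagagtggtcaaata
Uqcrc2: gctgtcctaGtgtcAataaagcattgtgt
Ndufc1: ttaaagaaAtaaaaAtactcgcgctcctc
Atp5k: gtcgttgagaacgaAtaaagcttcattgt
Cox7a2l: gaccggactgcggaAtaaacactgg
These windows lay at chr17:56722100-56722128 on the plus strand (Ndufa11), chr1:92439495-92439523 on the minus strand (Ndufa10), chr8:69894183-69894211 on the minus strand (Ndufa13), chr7:120659241-120659269 on the plus strand (Uqcrc2), chr3:51405479-51405507 on the minus strand (Ndufc1), chr5:108433257-108433285 on the minus strand (Atp5k) and chr17:83501934-83501958 on the minus strand (Cox7a2l). All are in 3′ UTRs.

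The second set shows sites away from that element. In Cox5a the deleted bases were the pair of T in a T-rich stretch of the 3′ UTR. In Uqcrc2 a separate cluster opened a run of A that is encoded in the genome, upstream of the signal shown above. The Uqcr10 and Sdha windows hold the hexamer ATATAA, in the coding sequence of Uqcr10 and in the 3′ UTR of Sdha, and the Atp5o, Ndufs1 and Cox4i1 windows are coding.
Cox5a: gttgcctggaaatgTTttatttgaacaaa
Uqcrc2: tttctcaatgaaGTAAAaaaaaaaaaaac
Uqcr10: ctgtggaaacataTAaagcacaagtatga
Sdha: gaaacagcaaAtaTAattttcttccgctg
Atp5o: aaagtacgttgatATgtctgcaaagagca
Ndufs1: aggagccgtccatATgctgagacatctaa
Cox4i1: accccattcagggCTTCtccgccaagtgg
These lay at chr9:57532328-57532356 on the plus strand (Cox5a), chr7:120659191-120659219 on the plus strand (Uqcrc2), chr11:4702189-4702217 on the minus strand (Uqcr10), chr13:74322764-74322792 on the minus strand (Sdha), chr16:91925319-91925347 on the minus strand (Atp5o), chr1:63143822-63143850 on the minus strand (Ndufs1) and chr8:120674049-120674077 on the plus strand (Cox4i1). Within a run of equal bases the list cannot say which of them was lost.

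PABPC1 signal was present on nearly every one of these mRNAs. Of the 90 genes, 89 were at 1 RPKM or more, and the counts below are over those 89. The remaining gene, Cox4i2, was at 0.144 RPKM with no exonic peak. All 89 held a peak in the gene span, against 97.5% of the 10211 protein-coding genes at that level. An exonic peak was held by 88, against 96.6% of the same protein-coding genes, so the share with a peak was near the background. An exonic peak of at least 74 tags was held by 76 (85.4%), against 55.3%. An exonic deletion site was held by 57 (64.0%), against 37%. Among the 6285 other protein-coding genes within the 10th to 90th percentile of RPKM of the respiratory chain genes, 49.1% held an exonic deletion site. By complex the share with such a site was 62.2% in complex I, 100% in complex II (4 genes), 77.8% in complex III, 64.3% in complex IV and 52.9% in complex V.

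Together the 90 genes held 397 exonic and 19 intronic peaks and 205 deletion sites, of which 198 were exonic. Summed height (the heights of a gene's exonic peaks added up, not divided by length) came to 68519 tags, which was 2.16% of that of all protein-coding genes. Their RPKM summed to 19045, which was 3.61% of that of all protein-coding genes. The respiratory chain genes had a median of 138.7 RPKM and the other protein-coding genes of 19.5 RPKM. Median summed height was 551 tags for respiratory chain genes and 168 tags for other genes.

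**Figure D1:**
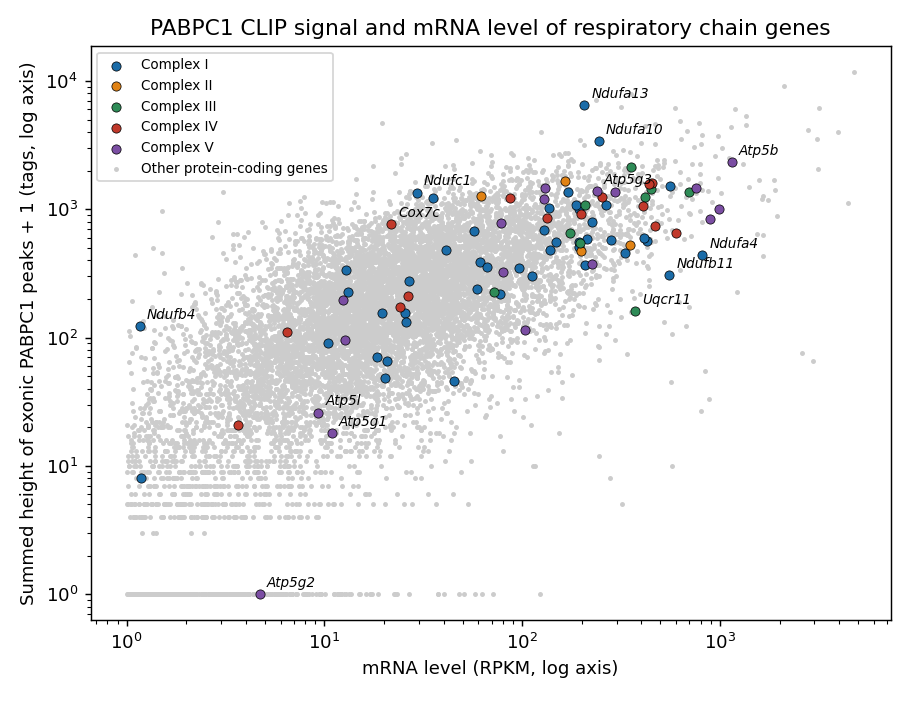
Summed height of exonic PABPC1 peaks plus 1 (tags, log axis) against mRNA level (RPKM, log axis), with each respiratory chain gene coloured by complex and other protein-coding genes in grey. Ndufa13 stands highest among the coloured points at 6486 tags, and Uqcr11, Ndufb11 and Ndufa4 lie low for their mRNA level.

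Summed height was higher in respiratory chain genes with more mRNA. Spearman's rho was 0.67 over 89 respiratory chain genes and 0.68 over 10122 other genes. The points share 1 set of pooled libraries, so these are descriptions. Within complexes rho was 0.64 in complex I (n = 45), 0.57 in complex III (n = 9), 0.58 in complex IV (n = 14) and 0.84 in complex V (n = 17).

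Set against RPKM on the scale log2((summed height + 1)/(RPKM + 1)), the respiratory chain genes had a median ratio of 1.89 and other protein-coding genes of 2.79, a difference of -0.90. The ratio lay below the median of other genes in 64 of 89. It was at or above 2 in 44 genes (49.4%), against 69.1% of protein-coding genes, and below 0 in 6 genes, against 6.82%. Summed height, unlike RPKM, is not scaled by length, and these mRNAs were short, with a median exon length of 1046 nt against 3260 nt for other genes. With summed height per kb of exon in its place the difference turned round, to a median ratio of 1.93 in respiratory chain genes and 1.13 in other genes. It also turned round when only peaks of at least 74 tags were summed, to 1.56 and 0.91. The direction of this difference depends on the scale. Mitochondrial ribosomal protein genes, with a median of 2.12 (n = 74), and proteasome genes, with 1.94 (n = 47), lay near the respiratory chain genes on the first scale.

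**Figure D2:**
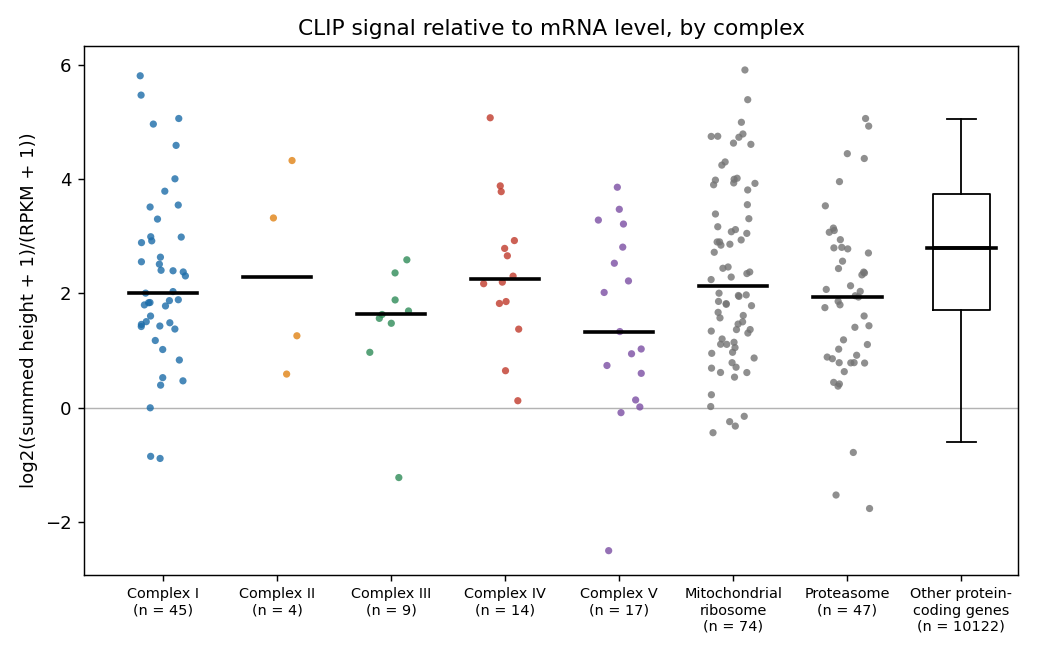
log2((summed height + 1)/(RPKM + 1)) for genes at 1 RPKM or more, with a dot for each gene of complexes I to V, the mitochondrial ribosome and the proteasome, and a black line at each median. Other protein-coding genes are drawn as a box of quartiles with whiskers at the 5th and 95th percentiles, and the medians of all 5 complexes, 1.33 to 2.29, lie below that box's median of 2.79.

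Complex I is the NADH dehydrogenase, built of a catalytic core and many accessory subunits. Its 45 genes had a median of 111.8 RPKM and a median summed height of 458 tags, and 28 of them held an exonic deletion site, 66 sites in all. The 7 assembly factors (Ndufaf1 to Ndufaf7), which help to build the complex but are not part of it, had a median of 25.5 RPKM and 132 tags. Of these, Ndufaf6 and Ndufaf7 held a site (28.6%), near the 37% of protein-coding genes. The 7 nuclear core subunits had a median of 192.6 RPKM and 570 tags. The 31 other subunits had a median of 128.2 RPKM and 479 tags, and 22 of them held a site. These classes overlapped in level. The other subunits, counted by name, ran from 1.16 RPKM to the 812.3 RPKM of Ndufa4, a range that spans the 18.5 to 58.7 RPKM of the assembly factors. The lowest core subunit was at 19.6 RPKM.

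Among the core subunits, the highest summed height was in Ndufs1, the large iron-sulfur subunit, with 1018 tags at 136.3 RPKM. Its tallest peak, of 933 tags, carried 4 deletion sites and 90 deletions. Ndufv2, an iron-sulfur subunit of the NADH-oxidising arm, had 1005 tags spread over 9 peaks at 192.6 RPKM. In all 7 core subunits the tallest peak reached to within 50 nt of an annotated 3′ end.

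Ndufa13, an accessory subunit also known as GRIM-19, held the tallest peak of the set. That peak, chr8:69894161-69894433 on the minus strand, was 6446 tags high and made up 99.4% of the gene's 6486 tags. The gene was at 205.9 RPKM, which placed it at the 95.6th percentile of protein-coding genes for mRNA level and the 99.95th for summed height. All 9 of its deletion sites, with 1243 deletions, lay in its 41-nt 3′ UTR. The strongest was 17 nt before the annotated end with 196 deletions in 3084 tags, or 6.36% (exact 95% interval 5.52% to 7.27%, which here and below covers counting error only). Deletions were spread over 8 adjoining bases of the AATAAA window shown above. Yjefn3 overlaps Ndufa13 on the same strand, but none of these peaks or sites lay in its exons.

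Ndufa10, an accessory subunit with a nucleoside kinase fold, came second at 243.4 RPKM and 3388 tags, 2687 of them in the peak chr1:92439441-92439928. Its main site held 228 deletions in 2298 tags, or 9.92% (interval 8.73% to 11.2%). It lay on an AATAAA that stands 499 nt before the end of the basic transcript and 230 nt before the nearest end of any annotated transcript. Ndufa11, a subunit of the membrane arm, was at 35.6 RPKM with 1226 tags. It held the site with most deletions among the 90 genes, 239 in 998 tags, or 23.9% (interval 21.3% to 26.7%), and this site stood 23 nt before an annotated end. Ndufc1, a small membrane subunit, had 1348 tags at 29.3 RPKM, 1285 of them in a peak over its AATAAA window. The site at the centre of that window lies 816 nt before the end of a basic transcript but 15 nt before the end of another annotated transcript of the gene.

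The ratio to mRNA level spanned a wide range inside complex I. Among complex I genes at 10 RPKM or more the unscaled ratio was highest in Ndufc1 (5.48), with Ndufa11 (5.07), Ndufa13 (4.97) and Ndufa12 (4.60) also near the top. It was lowest in Ndufa4 (-0.89, 437 tags at 812.3 RPKM), Ndufb11 (-0.86, 306 tags at 554.6 RPKM) and Ndufs5 (-0.005, 45 tags at 45.2 RPKM). Per kb of exon the ratio was -0.21 in Ndufa4, -0.72 in Ndufb11 and 0.21 in Ndufs5, so the order of these low values depends on the scale, while Ndufc1 (5.16) and Ndufa11 (4.94) were high on both. Ndufa4 was named for complex I and later assigned to complex IV, but is counted with complex I here by its name. Its relative Ndufa4l2, known as a hypoxia-induced gene, was at 1.18 RPKM with 7 tags. Ndufb4 was at 1.16 RPKM with 121 tags in 1 peak, a ratio of 5.82 that rests on a very low level. Ndufb8 and Ndufb9, both accessory subunits, overlap other genes on their strand. In Ndufb9 a peak of 256 tags and 2 of 3 sites fell in the exons of Gm49356, so they cannot be told apart by position.

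Complex II is succinate dehydrogenase, shared by the respiratory chain and the citric acid cycle. All 4 of its genes held deletion sites, 15 in all, and all 15 were in 3′ UTRs. Sdha, the flavoprotein, was at 164.8 RPKM with 1659 tags, 1354 of them in 1 peak, and 7 sites. Its strongest site, in the ATATAA window above, held 68 deletions in 250 tags, or 27.2%. It lay 524 nt before the basic transcript end and 46 nt before the end of another annotated transcript. Sdhc, a membrane anchor, was at 62.0 RPKM with 1267 tags, 1178 of them in 1 peak. Sdhb, the iron-sulfur subunit, had 474 tags at 197.6 RPKM, and Sdhd, the other anchor, had 527 tags at 350.6 RPKM. The ratio ranged widely here too: it was 4.33 in Sdhc and 3.32 in Sdha, but 1.26 in Sdhb and 0.59 in Sdhd.

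Complex III, the cytochrome bc1 complex, had the highest median level, 354.9 RPKM over 9 genes, and 7 genes held 34 sites. Uqcrc2, a core subunit, was at 354.9 RPKM with 2142 tags, 1939 of them in the peak chr7:120659017-120659505. Its main site, on AATAAA, held 173 deletions in 1649 tags, or 10.5% (interval 9.05% to 12.1%). That site lay 269 nt before the nearest end of any annotated transcript of the gene. The cluster at the encoded A run held 5 sites of 10 to 72 deletions. Uqcrc1, the partner core subunit, was at 446.2 RPKM with 1445 tags. Uqcr10, a small subunit, was at 693.7 RPKM with 1358 tags and 10 sites, second among the 90 genes in its deletions (520) to Ndufa13. Of these sites 2 were coding, at ATATAA, with 68 deletions each. Uqcrfs1, the Rieske iron-sulfur protein, had a single exonic peak of 546 tags with 5 sites. Cyc1, the heme-bearing cytochrome c1, had 1072 tags and 5 sites. Uqcr11, with 159 tags at 373.8 RPKM, had the lowest unscaled ratio of the respiratory chain genes at 10 RPKM or more, -1.23. Per kb of exon its ratio was -0.06, and Atp5g1 (-1.41), Atp5c1 (-0.95), Ndufb11 (-0.72), Atp5a1 (-0.59) and Ndufa4 (-0.21) were lower.

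Complex IV is cytochrome c oxidase, and several of its nuclear subunits exist as tissue isoforms. Its 14 genes at 1 RPKM or more had a median of 165.6 RPKM and 808 tags, and 9 of them held 35 sites. Per kb of exon, complex IV had the highest median height of the 5 complexes, 1074 tags, against 398.7 tags per kb in complex I and 48.5 tags per kb in other protein-coding genes. These heights are not set against mRNA level. Other genes in the RPKM range of the respiratory chain genes had 84.5 tags per kb. As a log2 ratio to RPKM, height per kb had a median of 2.73 in complex IV and 1.13 in other genes. Cox4i1, the broadly expressed isoform of subunit 4, had 452.9 RPKM, 1607 tags and 12 sites, while its lung and hypoxia isoform Cox4i2 was at 0.144 RPKM. Cox6a1, the general form, had 435.3 RPKM and 1581 tags, 1480 of them in 1 peak. Cox6a2, the heart and muscle form, had 26.5 RPKM and 208 tags.

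The other isoforms of complex IV were as follows. Cox6b1 had 601.1 RPKM and 653 tags, and the testis form Cox6b2 had 6.50 RPKM and 110 tags. Cox7a1, the heart and muscle form, had 3.66 RPKM and 20 tags, against 197.9 RPKM and 912 tags for Cox7a2. Cox7a2l, which helps to join complexes III and IV, had 133.3 RPKM and 848 tags. Cox8a had 468.9 RPKM and 734 tags with 6 sites, and Cox8b and Cox8c were not analysed here. In the Cox4i, Cox6a and Cox6b pairs, and for Cox7a2 beside Cox7a1, the form known from most tissues was the one with the higher RPKM and the higher summed height. Cox5a, a matrix subunit, held the third strongest single site, 222 deletions in 617 tags, or 36.0% (interval 32.2% to 39.9%), at the T pair shown above. Cox7b held a single site, of 135 deletions in 765 tags, with no poly(A) signal within 50 nt.

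Complex V, ATP synthase, had a median ratio of 1.33 over 17 genes, the lowest of the 5 complexes on the unscaled ratio. Per kb of exon its median was 1.72, above the 1.67 of complex III and the 1.43 of complex II. The 17 genes include Atp5s and Atp5sl (annotated as Dmac2), which are related to a coupling factor and not counted as subunits. Over the 15 subunit genes alone the median was 1.03 unscaled and 1.44 per kb of exon. On the per-kb scale these 15 genes thus lay below complex III. In complex V 9 genes held 48 sites. The 5 genes of the F1 head, which makes ATP, had a median of 758.2 RPKM and 1370 tags and held 29 of those sites. Atp5b, the catalytic beta subunit, had the highest level of all 90 genes, 1146 RPKM, with 2336 tags over 10 peaks and 11 sites. Atp5a1, the alpha subunit, had 758.2 RPKM, 1458 tags and 13 sites, the most of the 90 genes. Atp5c1, the gamma subunit, had 889.8 RPKM but 836 tags, a ratio of -0.09. Atp5d and Atp5e, the delta and epsilon subunits, had 1370 tags at 293.3 RPKM and 1204 tags at 128.5 RPKM.

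The c subunit, which forms the rotating ring, is encoded by Atp5g1, Atp5g2 and Atp5g3, whose mature proteins are the same. The most mRNA and PABPC1 signal was listed under Atp5g3, at 237.7 RPKM with 1378 tags and 9 sites. Atp5g1 had 10.9 RPKM and 17 tags. Atp5g2 had 4.70 RPKM and no exonic peak, the only respiratory chain gene at 1 RPKM or more without any. In the stalk and membrane part (7 genes, median 103.0 RPKM and 375 tags), Atp5o, the stalk subunit OSCP, had 1460 tags at 130.3 RPKM. Both its sites were coding. Atp5k, subunit e, had 991.2 RPKM with 998 tags, a ratio of 0.01, and Atp5l, subunit g, had 9.33 RPKM with 25 tags.

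Many of these genes have processed pseudogenes whose sequence is nearly the same, and reads or tags can then be listed under either. Of the 89 genes, 22 had an annotated pseudogene transcript of at least 95% identity over at least 150 nt. These 22 had a median of 82.8 RPKM and a ratio of 1.54, and the 67 without had 186.9 RPKM and 2.01. The 42 copies summed to 5140 RPKM but to 1772 tags of peak height, and 19 of them held a peak. For 16 genes the copies together were listed at more RPKM than the gene. Uqcr11 had 373.8 RPKM and its copies 1308 RPKM, nearly all of it under Gm16418, which held 38 tags. Cox7c had 21.7 RPKM with 768 tags, and its copies 303.0 RPKM. Ndufa12 had 12.9 RPKM with 335 tags, and its copy 247.3 RPKM. Ndufab1, the mitochondrial acyl carrier protein, had 10.4 RPKM and its copies 256.1 RPKM. Levels and ratios of these genes are uncertain for that reason, Cox7c (ratio 5.08), Ndufa12, Uqcr11, Ndufb11 and Ndufs5 among the extremes named above, and Atp5g1, Atp5g2 and Atp5l.

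**Figure D3:**
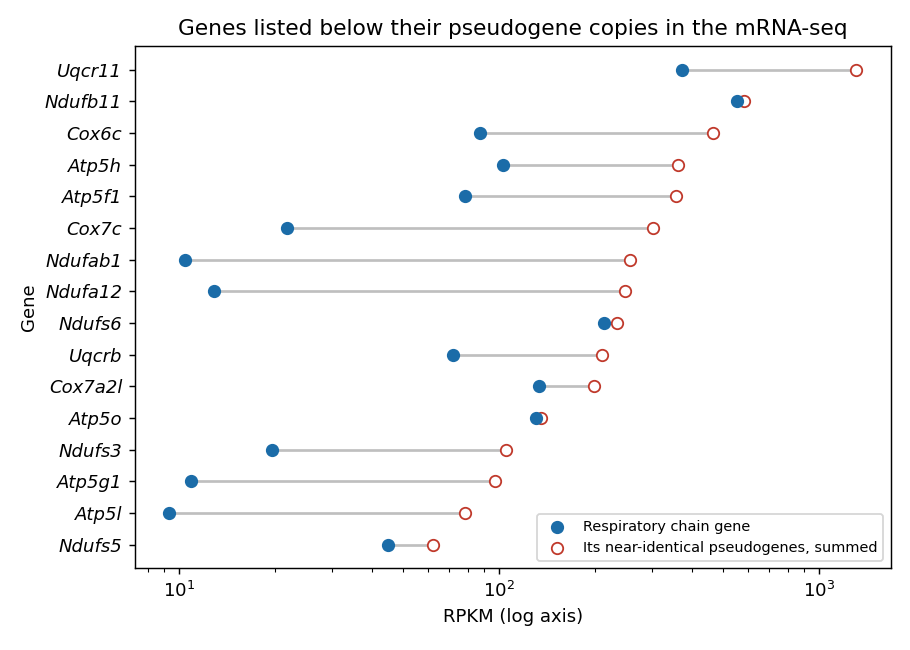
RPKM (log axis) of the 16 respiratory chain genes listed below their near-identical pseudogenes (filled points) and of those pseudogenes summed (open points), 1 line per gene. The distance between the points is widest for Ndufab1, at 10.4 and 256.1 RPKM, and Ndufa12, at 12.9 and 247.3 RPKM.

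By position along the mRNA, most deletion sites fell in the 3′ UTR. Of the 198 exonic sites on respiratory chain genes, 161 (81.3%) were in 3′ UTRs, 37 (18.7%) in coding sequence and 0 in 5′ UTRs. On other protein-coding genes the shares were 90.2%, 8.97% and 0.802%. The 3′ UTR share was 82.2% in mitochondrial ribosomal protein genes, 85.4% in proteasome genes and 88.2% in other genes of like exon length. The coding share in these sets was 15.6%, 14.6% and 11.3%. Sites placed uniformly on the exons of the same genes would have put 27.5% in 3′ UTRs of the respiratory chain genes and 44.5% in those of other genes. Of the summed peak height, 54.5% lay in 3′ UTRs in respiratory chain genes (60.2% without Ndufa13) and 78.3% in other genes. By number of peaks the 3′ UTR held 25.9% in respiratory chain genes and 55.0% in other genes. It held 36.2% in mitochondrial ribosomal protein genes, 20.2% in proteasome genes and 43.8% in other genes of like exon length. Of summed height these 3 sets had 65.9%, 67.4% and 73.8% in 3′ UTRs. These shares use the peak's midpoint, and the peaks are long beside the 3′ UTRs: the tallest peaks had a median width of 183 nt, and the median 3′ UTR was 201 nt, against 1187.5 nt in other genes.

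**Figure D4:**
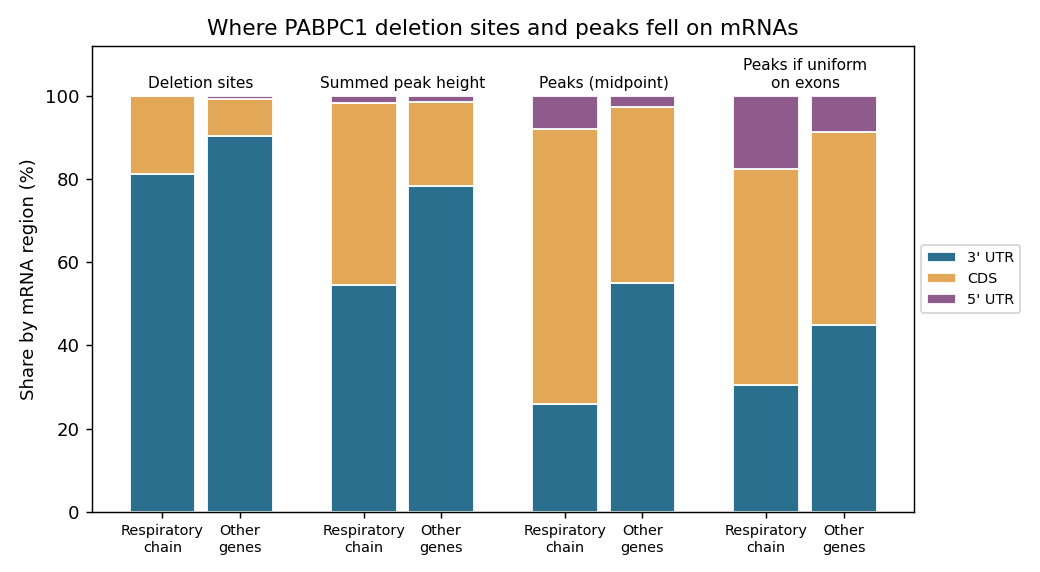
Share (%) of deletion sites, summed peak height and peaks in 3′ UTR, coding sequence and 5′ UTR, with respiratory chain genes at the left of each pair and other protein-coding genes at the right. The last pair gives the shares expected if the peaks fell uniformly on the exons of their own genes. Deletion sites on respiratory chain genes were 81.3% in 3′ UTRs, while their peaks were 25.9%.

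A peak over the end of the coding sequence that runs to the end of the mRNA was common. The tallest peak held a median of 77.0% of a respiratory chain gene's summed height, and 59.9% in other genes, but 74.2% in other genes of like exon length and 76.7% in mitochondrial ribosomal protein genes. It covered a stop codon in 61 of 88 genes (69.3%), against 22.2% of protein-coding genes. It reached to within 50 nt of an annotated end in 66 (75.0%), against 61.2%, and did both in 45 (51.1%), against 14%. In other protein-coding genes of like exon length the tallest peak covered a stop codon in 34.9%, reached an end in 71.2% and did both in 26.5%. The stop codon was covered in 66.2% of mitochondrial ribosomal protein genes and 63.8% of proteasome genes. Those 2 sets also had short 3′ UTRs, with medians of 403 nt and 241 nt. The part that 3′ UTR length plays was not tested. In 25 genes the midpoint of the tallest peak lay in coding sequence, and in 21 of these the peak covered the stop codon.

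Within 3′ UTRs, the sites of respiratory chain genes had a median distance of 104 nt to the annotated end, where all bases of the same 3′ UTRs, weighted by sites, gave 125.5 nt. In other genes the medians were 124 nt for sites and 524.75 nt for all bases. A share of 48.4% of the respiratory chain sites lay within 100 nt of the end, against 47.8% of bases, and 46.8% of other sites did, against 19.1% of bases. In 3′ UTRs under 300 nt the respiratory chain genes had 65.2% of 89 sites within 100 nt, against 69.8% of bases, and other genes had 84.9%, against 66.4%. The median distances there were 67 nt in respiratory chain genes and 38 nt in other genes. By the ends of basic transcripts, short 3′ UTRs of other genes thus held more sites near the end than their bases did. Those of respiratory chain genes did not, but their 89 sites came from 33 genes and often adjoin. Some of them counted here as far, such as those of Atp5b, lay 10 to 95 nt from the end of another annotated transcript. The split by 3′ UTR length was not repeated with such ends in either set. In 3′ UTRs of 300 nt or more the respiratory chain genes had 27.8% of 72 sites within 100 nt, against 20.6% of bases, and other genes had 42.1%, against 13.3%. The adjoining bins from 20 to 39 nt before the end held the most sites in both sets, 18.0% in respiratory chain genes and 20.3% in others.

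**Figure D5:**
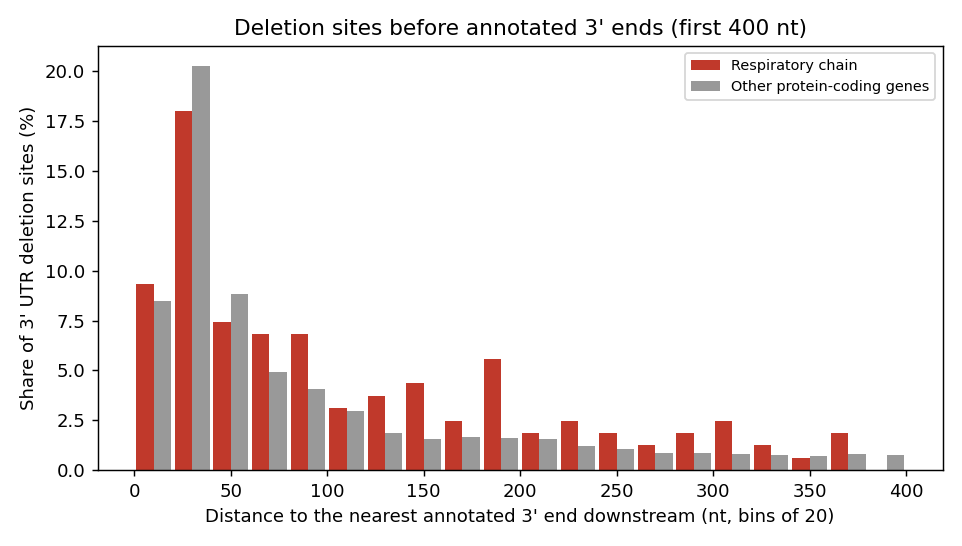
Share (%) of 3′ UTR deletion sites by distance to the nearest annotated 3′ end downstream (nt, bins of 20 nt, first 400 nt), with respiratory chain genes in red and other protein-coding genes in grey. Both sets are highest at 20 to 39 nt, with 18.0% of sites in respiratory chain genes and 20.3% in other genes.

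Some sites that lie far from the end of the basic transcript lie close to another annotated end. Of the 83 sites over 100 nt from the end, in 26 respiratory chain genes, 29 (34.9%) stood within 100 nt of the end of any annotated transcript of the gene, non-coding ones included. These 29 sites came from 11 genes and often adjoin. For other genes the share was 10.7% of 4544 sites. The share of bases near such ends was not computed in either set. The 83 sites had a poly(A) signal within 50 nt in 28.9%, and bases over 100 nt from the end in the same 3′ UTRs had it in 23.8%.

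Motifs were searched on the transcript strand as fixed letters. A poly(A) signal, AATAAA or ATTAAA, lay within 50 nt of 49.1% of the 161 respiratory chain sites and of 41.9% of all bases of the same 3′ UTRs. In other genes it lay near 53.9% of sites and 20.3% of bases. AATAAA lay within 20 nt of 36.6% of respiratory chain sites and 18.3% of bases, and of 33.5% of other sites and 7.08% of bases. ATATAA lay within 20 nt of 3 respiratory chain sites (1.86%, bases 0.935%), and of 12.2% of other sites (bases 1.62%). AAAAAA lay within 20 nt of 6.21% of respiratory chain sites (bases 1.58%) and of 11.8% of other sites (bases 3.04%). By share of sites alone, AATAAA was alike in both sets, and ATATAA and AAAAAA stood beside a smaller share in the respiratory chain genes. The bases differed as well. AATAAA was near more bases of the respiratory chain 3′ UTRs than of the others (18.3% against 7.08%), and AAAAAA was near fewer (1.58% against 3.04%). The 3 respiratory chain sites with ATATAA were all in Sdha. Sites often adjoin and so are not independent. The deleted base was T at 49.5% and A at 37.4% of respiratory chain sites, and T at 48.2% and A at 45.3% of other sites. C and G made up 6.57% each in respiratory chain genes, against 3.15% and 3.30% in other genes.

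Deletion sites on these genes were deeply covered and lightly deleted. Median coverage was 347 tags at respiratory chain sites and 146 tags at other sites. The median deleted share was 5.94% at respiratory chain sites and 10.9% at other sites. Of the 198 sites, 178 (89.9%) lay in their gene's tallest peak, against 70.5% of other sites. Whether coverage plays a part in the lower deleted share was not tested.

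Coding deletion sites were held by 20 of the 89 genes (22.5%), against 4.97% of protein-coding genes. This background is not matched for mRNA level, whose median was 138.7 RPKM in respiratory chain genes and 19.5 RPKM in other genes. The share among genes of like level was not computed. Mitochondrial ribosomal protein genes (n = 74) held 14 coding sites and proteasome genes (n = 47) held 15. The coding sites of the respiratory chain genes came from every complex but II. The genes were Ndufaf6, Ndufs1, Ndufa6, Ndufa10, Ndufb8, Ndufb9, Ndufc2 and Ndufs4 of complex I, and Cyc1, Uqcr10, Uqcrc1 and Uqcrh of complex III. Complex IV added Cox4i1 and Cox7a2, and complex V added Atp5a1, Atp5b, Atp5c1, Atp5g3, Atp5j and Atp5o. Cox4i1 held most, 7 sites of 9 to 20 deletions, and Atp5g3 held 4. The strongest were the Uqcr10 pair, with 68 deletions each, of which the first was 16.3% of 417 tags (interval 12.9% to 20.2%). The Atp5o and Ndufs1 pairs followed, with 28 deletions at each base in Atp5o and 21 at each base in Ndufs1, all at the AT shown above. Atp5b also held a coding site of 28 deletions, in 143 tags.

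The remaining coding sites were weaker. Atp5j, Ndufb9 and Ndufaf6 held sites of 10 to 18 deletions, Atp5c1 1 of 12 and Ndufb8 1 of 11. Uqcrh had 1 of 10, Ndufc2 and Ndufs4 1 of 9 each, Cyc1 1 of 8, and Ndufa6, Ndufa10, Cox7a2, Uqcrc1 and Atp5a1 held sites of 6 deletions. The Atp5c1 site was deleted in 12 of 13 tags, 92.3% (interval 64.0% to 99.8%). Atp5c1 has 2 near-identical pseudogenes, and whether the tags came from them was not tested. Of the 37 coding sites, 37.8% lay within 200 nt of the annotated end, against 12.7% of 850 coding sites of other genes. The median distances were 231 nt and 859.5 nt. Coding bases themselves lie nearer the end where 3′ UTRs are short, and the median 3′ UTR was 201 nt here against 1187.5 nt in other genes. The distances of all coding bases were not computed, so this contrast cannot be credited to the sites. ATATAA lay within 20 nt of 5.41% of the 37 coding sites, against 22.4% of other coding sites.

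Introns held little signal. The tallest intronic peak was in Ndufab1, 378 tags at chr7:122100499-122100573 on the minus strand, with 2 sites of 25 deletions each. This peak was higher than the gene's 90 exonic tags. A peak of 211 tags placed in a Ndufa7 intron touched an exon of the gene, and the gene's intronic site of 10 deletions lay in that peak. The other 17 intronic peaks were of 4 to 38 tags. Ndufv2 held 3 intronic sites of 7 deletions in 7 to 18 tags. They lay within a peak of 114 tags whose midpoint was in the 5′ UTR, not in an intronic peak.

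Genes that serve the pathway without matching the names also held peaks. All 32 other assembly factors, with Atpif1, had an exonic peak, against 96.6% of protein-coding genes, and 12 held a site, against 37%. Both shares were near the background. Their medians were 20.2 RPKM and a ratio of 2.86. In that list Cox17, a copper chaperone, and Cox19, another factor of complex IV assembly, were highest in ratio (not scaled by length), at 6.03 (1032 tags at 14.8 RPKM) and 5.78 (1355 tags at 23.7 RPKM). Bcs1l, which inserts the Rieske protein into complex III, was lowest at 0.08. Atpif1, the inhibitor of ATP synthase, had 365.4 RPKM, 933 tags and 6 sites. Cycs, the cytochrome c that links complexes III and IV, was at 4.80 RPKM with 76 tags. Of 12 regulators 11 were at 1 RPKM or more, 10 of these had a peak, and Tfb2m had none. Ppargc1a, a coactivator of mitochondrial genes, was at 0.004 RPKM. The 13 mitochondrially encoded subunits were not analysed here.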

How the data were processed

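MEL cells were profiled by PABPC1 CLIP-seq (3 samples) and mRNA-seq (2 samples). The authors deposited 1 RPKM value per gene for both mRNA-seq samples. They also deposited a peak list whose score, used as signal, was taken as peak height in tags, and a list of deletion sites with counts of deletions and of covering tags. What the score means, and both thresholds, are not given in the sources used here. Per the submitters' processing notes the tools were HTSeq 0.6.0, TopHat2 2.0.12, cutadapt 1.4.2 and Novoalign 3.02.02, on mm10, with no role stated. Depth was 35251228 reads for the deposited RPKM (100% of genes under 200 reads gave whole reads within 0.01). CLIP-seq depth is unknown.

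Peaks were placed by midpoint, and sites by base, on GENCODE M21 basic transcripts by strand, in the order 3′ UTR, 5′ UTR, coding sequence, non-coding exon, intron. Ratios used a pseudocount of 1 and genes at 1 RPKM or more, a scale that understates the ratio of low genes. Distances ran along the transcript to the nearest annotated end. Near-identical copies were found with BLAST 2.17.0 (at least 95% identity over 150 nt), and this step and the distance to ends of all annotated transcripts were chosen after seeing the data. Python 3.11.15, numpy 2.4.6 and scipy 1.17.1 were used, and placement and counting were tested on simulated data. The members and lists were chosen with earlier results of these data known. Full values are given for the 2 genes of largest summed height in each complex, the 5 tallest peaks, the 5 highest and lowest ratios at 10 RPKM or more, genes with coding sites, the 5 with most sites, the 5 strongest sites and the isoform sets. Alternatives were the peak-height and RPKM minimums, peak placement, region order, annotation, pseudocount, length scaling, joined sites and sets of genes. Intervals of deleted shares are exact (Clopper-Pearson) and cover counting error only. A further result is not reported here.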

Additional observations from a re-analysis of the deposited data

How the results depend on the processing

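Of 49 alternatives computed, 41 left the value near that reported, 6 moved it and 2 turned its direction. The difference in median log2 height over RPKM between respiratory chain genes and other protein-coding genes, -0.90, became 0.65 with peaks of at least 74 tags and 0.80 per kb of exon. It shrank to -0.29 against other genes of like exon length. The 3′ UTR share of peaks on respiratory chain genes, 25.9%, became 43.0% with peaks of at least 74 tags and 35.6% with all annotated transcripts. It became 54.5% as a share of summed height, 52.6% with peak bases weighted by height, and 60.2% as a share of summed height without Ndufa13. The share by peak bases, that of height without Ndufa13, and the settings without genes that have near-identical pseudogenes, without genes overlapped on their strand, with pseudogene values added, and without Ndufa13 for deletion sites, were chosen after seeing the data. The cause of the changes was not tested. No paired analysis was possible because the deposited lists pool the replicates, and for the same reason leaving out each replicate was not run. CLIP-seq depth being unknown, a gene without a site is only one whose site did not pass the authors' threshold.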
